A study of Mus musculus with 32 samples.

Results

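The Vmn1r genes encode the V1R pheromone receptors of the mouse vomeronasal organ, and their reads in oocyte RNA are described here across 3 kinds of mice and 2 stages of oocyte maturation. Members were all protein-coding mouse genes whose symbol is Vmn1r plus a number, found by NCBI gene ID in the count table. The table held 228 of them among 37441 genes, and RefSeq names 230 such genes in all. At least 1 read was counted over the 32 libraries for 168 of the 228, at least 10 reads for 110 and at least 100 reads for 61, while 60 had no read. After a filter on low counts, 56 members (24.6%) could be tested, and 112 had reads but too few for a test.

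V1R receptors are G-protein-coupled receptors of sensory neurons in the apical layer of the vomeronasal organ. They detect pheromones and other social chemical cues, signal through the G-protein subunit encoded by Gnai2 and open the cation channel encoded by Trpc2. Each neuron is known to express about a single receptor gene, and the genes lie in clusters that have expanded by local duplication. Oocytes are not a tissue in which these receptors have an established function, so a read there is a count over the gene and shows nothing of receptor activity.

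The study sequenced RNA of germinal vesicle (GV) oocytes, which are arrested in meiotic prophase, and of metaphase II (MII) oocytes, the mature eggs, from B6, D2 and B6xD2 F1 females of 8 to 12 weeks. Each library came from a pool of 9 to 20 oocytes of 1 mother, so the replicates were separate animals; IBMX kept GV oocytes from maturing, and the zona pellucida was dissolved in acid Tyrode's. The groups were B6 GV (5 libraries), B6 MII (6), D2 GV (5), D2 MII (5), F1 GV (6) and F1 MII (5), each split over batch 1 and batch 2, which were sequenced on different Illumina instruments. RNA was amplified by SPIA and 12 PCR cycles, and read as single 50-base reads.

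Libraries held between 18.7 and 39.7 M counted reads (M, 1000000), and 1 read was worth between 0.0249 and 0.053 CPM (counts per 1000000 reads) after TMM scaling. All 14 oocyte markers, among them Gdf9, Zp3 and Nlrp5, were tested, and their summed level lay between 8650 and 14100 CPM. Markers of granulosa cells, the cells that surround the oocyte, summed to between 161 and 3780 CPM in GV libraries and to between 100 and 202 CPM in MII libraries. With bulk RNA, fewer cells of a type and less RNA per cell cannot be told apart. Changes were tested with edgeR over all 19003 genes that passed the filter, with batch as a covariate, and a gene is called at an adjusted p below 0.05.

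The members lay in 13 clusters on 7 chromosomes (GRCm38; clusters are separated by more than 1000000 bases without a member). The cluster from 20101158 to 24055691 on chromosome 7, 3.95 Mb long, held 86 of them and 93.2% of all Vmn1r reads, 78734 of 84466. It is called the chromosome 7 stretch here. Of its 86 genes 76 had reads and 46 were tested, while the other 142 members shared 5732 reads and gave 10 tested genes. The coding sequence lay in 1 exon in 226 members and was between 870 and 1155 bases long, with a median of 924.

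The genes of the stretch are close copies of each other. The median identity of a member with its nearest other member was 99.89% in the stretch, and 34 members there had a coding sequence identical to that of another. A read of 50 bases can often not be assigned to 1 of them. In 44 members every coding 50-mer was also present in another transcript, all of them in the stretch, and 43 of these had reads and 30 were tested. The median share of such 50-mers was 100% in the stretch and 12% elsewhere.

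The sequences of the genes with the most reads show how little tells them apart. The windows below are 60 coding bases from GENCODE M21 (GRCm38), 5′ to 3′ on the coding strand, and capitals mark bases that differ from Vmn1r139. Vmn1r139 (chr7:22096905-22096964, plus strand), Vmn1r132 (chr7:21614130-21614189, plus), Vmn1r112 (chr7:20771223-20771282, plus) and Vmn1r157 (chr7:22761735-22761794, plus) are the 4 members with the most reads; Vmn1r131 (chr7:21545993-21546052, minus) stands for another group of copies, and Vmn1r180 (chr7:23952452-23952511, plus) and Vmn1r179 (chr7:23928469-23928528, plus) lie near the distal end of the stretch.
Vmn1r139: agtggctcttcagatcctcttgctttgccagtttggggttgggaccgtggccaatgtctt
Vmn1r132: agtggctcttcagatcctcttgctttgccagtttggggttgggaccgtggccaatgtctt
Vmn1r112: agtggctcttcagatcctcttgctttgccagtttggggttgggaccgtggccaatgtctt
Vmn1r157: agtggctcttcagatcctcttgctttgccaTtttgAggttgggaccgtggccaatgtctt
Vmn1r131: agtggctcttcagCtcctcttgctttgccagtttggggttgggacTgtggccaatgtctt
Vmn1r180: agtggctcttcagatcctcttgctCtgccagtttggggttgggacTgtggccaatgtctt
Vmn1r179: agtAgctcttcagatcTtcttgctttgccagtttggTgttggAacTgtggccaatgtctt

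The same holds for the largest group of copies, with 16 members, of which Vmn1r107 (chr7:20669223-20669282, plus), Vmn1r155 (chr7:22658323-22658382, plus), Vmn1r130 (chr7:21512085-21512144, plus) and Vmn1r165 (chr7:23217637-23217696, plus) are shown, with capitals for bases that differ from Vmn1r107.
Vmn1r107: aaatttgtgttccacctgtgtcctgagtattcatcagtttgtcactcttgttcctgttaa
Vmn1r155: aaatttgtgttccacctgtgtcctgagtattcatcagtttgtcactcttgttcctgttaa
Vmn1r130: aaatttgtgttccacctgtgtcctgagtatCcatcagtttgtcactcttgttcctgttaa
Vmn1r165: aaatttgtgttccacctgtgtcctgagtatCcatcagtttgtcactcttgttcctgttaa

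Genes with the same coding sequence had nearly the same count. Vmn1r107 and Vmn1r155 had 2489 and 2551 reads in all, and the larger count of a library was a median of 1.06 times the smaller over the 11 B6 libraries. Vmn1r130, Vmn1r137 and Vmn1r165 had 2573, 2563 and 2582 reads. Vmn1r132 and Vmn1r139, also identical, differed more, with 7743 and 11193 reads and a median ratio of 1.45. The values of single copies are therefore uncertain, and members joined at 98% identity or more (167 groups of copies, 25 tested) were also summed before testing.

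**Figure D1:**
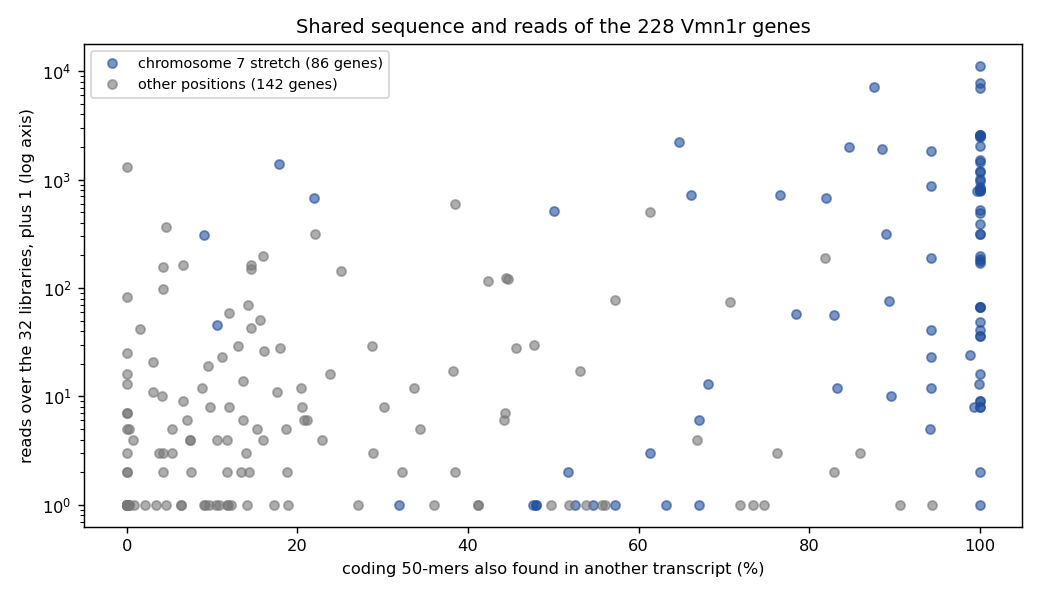
Reads of the 228 Vmn1r genes over the 32 libraries, plus 1, on a log axis, against the percent of a gene's coding 50-mers that are also in another transcript. Each point is a gene; genes of the chromosome 7 stretch (median 100%) crowd at the right and hold the highest counts.

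In B6 GV oocytes, the stretch summed to a mean of 202 CPM ± 82.7 (SD, n = 5), with the lowest library at 104 and the highest at 312. In B6 MII oocytes, the sum was 192 CPM ± 55.8 (SD, n = 6). D2 oocytes held 2.22 CPM ± 1.03 (SD, n = 5) at GV and 3.68 CPM ± 3.57 (SD, n = 5) at MII, and F1 oocytes 58.2 CPM ± 20.9 (SD, n = 6) at GV and 61.9 CPM ± 12.6 (SD, n = 5) at MII. At both stages every B6 library lay above every F1 library and every F1 library above every D2 library. The D2 MII value rested in part on 1 library, batch 1 replicate 4, at 9.67 CPM; the other 4 gave 2.18 CPM ± 1.41 (SD, n = 4). The 142 members elsewhere summed to group means between 4.67 and 8.15 CPM, and their libraries overlapped between all groups.

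**Figure D2:**
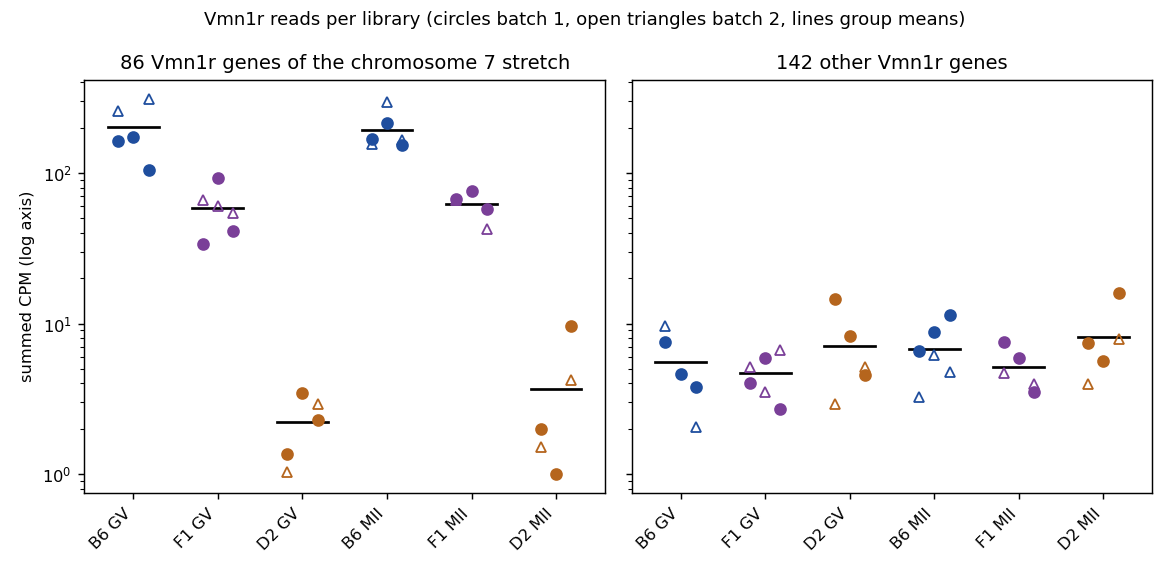
Summed CPM of Vmn1r genes in each library on a log axis, for the 86 genes of the chromosome 7 stretch (left) and the 142 others (right), by group; circles are batch 1, open triangles batch 2 and lines group means. In the stretch B6 libraries lie at 104 CPM or more and D2 libraries at 9.67 CPM or less, with F1 between them; the other genes overlap between all groups.

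Per length, Vmn1r139 was the member with the highest level in B6 oocytes, at 31.8 CPM per kb of coding sequence ± 12.1 (SD, n = 5) at GV. Vmn1r132 followed at 22.3 ± 7.51, Vmn1r157 at 20.5 ± 7.96 and Vmn1r112 at 20.2 ± 7.56 CPM per kb (SD, n = 5 each). These lay within each other's spread, while the mean of Vmn1r139 lay above the mean plus SD of each. Between Vmn1r139 and Vmn1r132 the larger count was 1.28 to 1.55 times the smaller over the 11 B6 libraries. The 4 members are copies of each other and took 40.6% of the Vmn1r reads of B6 libraries and 40.6% of those of F1 libraries, against 1.96% in D2. Next came 5 members of the group of 16, Vmn1r130, Vmn1r165, Vmn1r155, Vmn1r137 and Vmn1r107, between 6.99 and 7.31 CPM per kb, which also lay within each other's spread. In D2 GV oocytes the order was another one, led by Vmn1r233 on chromosome 17 at 1.83 CPM per kb ± 2.01 (SD, n = 5). Vmn1r139 ranked 21st there, at 0.0981 CPM per kb ± 0.0628 (SD, n = 5).

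D2 oocytes were compared with B6 oocytes at each stage to see which receptor genes differ between the parental strains. At both stages 45 of the 56 tested members were lower in D2 and 2, Vmn1r179 and Vmn1r212, were higher, and they were the same 45 and the same 2. Of all 19003 genes tested, 11.3% were lower and 9.16% higher in D2 at GV (20.5% in either direction), and 13% and 13.4% at MII (26.4%). All 45 lay in the stretch, where they were all but 1 of the 46 tested members. The filter can admit a gene through the group where it is high. Members of the stretch with too few reads for a test were not compared, so this share holds for the tested ones only. The median log2 change over the 56 members was -6.57 at GV and -5.61 at MII, or -6.42 and -5.56 with members that have no read in a group set at their bound, against -0.02 at both stages over all genes. Every D2 library lay below every B6 library for 45 tested members at GV and for 44 at MII. The share of all genes without such overlap, or with the same call at both stages, was not counted. Copies share reads, so these members are not separate observations.

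For Vmn1r139, the 5 B6 GV libraries read 23.8, 24.3, 15.3, 36.1 and 42.5 CPM and the 5 D2 GV libraries 0.0316, 0.108, 0.0961, 0.0360 and 0.167 CPM. The groups did not overlap, and the D2 values stood for between 1 and 5 reads. Vmn1r139 was lower in D2 by a log2 change of -8.25 (SE 0.435; edgeR adjusted p = 6.74e-17). At MII the 6 B6 libraries ranged from 21.3 to 38.9 CPM with a median of 23.8, and the D2 libraries read 0.095, 0, 0.0605, 0.0845 and 0.158 CPM. Its log2 change at MII was -8.34 (SE 0.438; adjusted p = 4.46e-17). Vmn1r132, Vmn1r157 and Vmn1r112 fell with it, with log2 changes of -8.58, -8.12 and -7.96 at GV and of -9.50, -9.03 and -8.72 at MII; Vmn1r132 rested on 3 D2 reads at MII, so that its size there depends on how the test treats low counts.

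Members of the group of 16 copies were also low in D2 at both stages. Vmn1r155 had 1 read in each of the 5 D2 GV libraries, between 0.0316 and 0.0360 CPM, while B6 GV libraries read 5.19, 5.14, 3.06, 9.17 and 10.5 CPM. At MII the B6 libraries lay between 5.12 and 9.51 CPM and the D2 libraries at 0.0317, 0.0343, 0.332, 0.0423 and 0.237 CPM, again without overlap. The log2 change of Vmn1r155 was -7.39 (SE 0.598; edgeR adjusted p = 5.34e-12) at GV and -5.41 (SE 0.514; adjusted p = 1.93e-10) at MII. Vmn1r165, Vmn1r130, Vmn1r137, Vmn1r107, Vmn1r95 and Vmn1r125 of the same group fell at GV with log2 changes of -8.06, -6.81, -7.13, -7.63, -7.11 and -6.44. Vmn1r124, which shares 64.69% of its 50-mers and belongs to no group of copies, had log2 changes of -6.86 at GV and -7.51 at MII.

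At the depth of these libraries many D2 values were at the limit of detection. Of the 45 lower members, 26 had at most 3 D2 reads at GV and 23 at MII, and 3 and 5 had none. Vmn1r166, with 275 reads in B6 GV libraries and none in D2, was at least 105-fold lower, taking 3 reads over the group as the floor. By the same floor Vmn1r257, with 373 B6 MII reads, was at least 102-fold lower in D2 at MII. These are the highest such bounds of each stage. Vmn1r166 has the same coding sequence as Vmn1r131 and Vmn1r138, which held 0.0156 and 0.0229 CPM per kb in D2 GV oocytes. Both genes belong to the group of 8 copies with Vmn1r131, so their bounds depend on how shared reads were assigned.

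With copies summed, 13 of 25 tested groups were lower in D2 at each stage and 2 higher, where 20.4% and 26.2% of all 18972 genes and groups were called in either direction. The 4 copies with Vmn1r139 summed to 84.7 CPM ± 31.3 (SD, n = 5) in B6 GV oocytes and 0.264 CPM ± 0.202 (SD, n = 5) in D2 GV oocytes, a log2 change of -8.21 (SE 0.425; edgeR adjusted p = 1.08e-16). The 16 copies with Vmn1r155 summed to 74.8 CPM ± 33.8 and 0.44 CPM ± 0.326 (SD, n = 5 each), a log2 change of -7.25 (SE 0.525; adjusted p = 2.73e-12). The 8 copies with Vmn1r131 fell from 17.4 CPM ± 10.3 to 0.107 CPM ± 0.135 (SD, n = 5 each; adjusted p = 7.46e-10).

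The reads of all mice were aligned to GRCm38, an assembly of the B6 strain. Fewer transcripts in D2 oocytes, fewer copies of these genes in the D2 genome and D2 reads that do not align to the B6 copies cannot be told apart from these counts.

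The 3 tested members of the stretch with the least shared sequence, Vmn1r179, Vmn1r178 and Vmn1r180 (8.99%, 17.78% and 21.98% of their 50-mers), differed in direction, with Vmn1r179 higher and the other two lower in D2. They were chosen after their values were seen. Vmn1r178 read 3.05 CPM ± 1.11 (SD, n = 5) in B6 and 0.0986 CPM ± 0.137 (SD, n = 5) in D2 at GV (edgeR adjusted p = 0.000248). At MII it read 3.3 CPM ± 0.858 (SD, n = 6) and 0.562 CPM ± 1.14 (SD, n = 5; adjusted p = 0.0201), with 2.6 CPM in D2 MII batch 1 replicate 4 and 0.0521 CPM ± 0.0593 (SD, n = 4) in the others. That library overlapped the B6 libraries, and the call at MII was lost when any 1 of the other 4 D2 MII libraries was left out and in batch 1 alone. Vmn1r180 had log2 changes of -5.14 at GV and -3.72 at MII, and lost both calls in batch 2 alone.

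**Figure D3:**
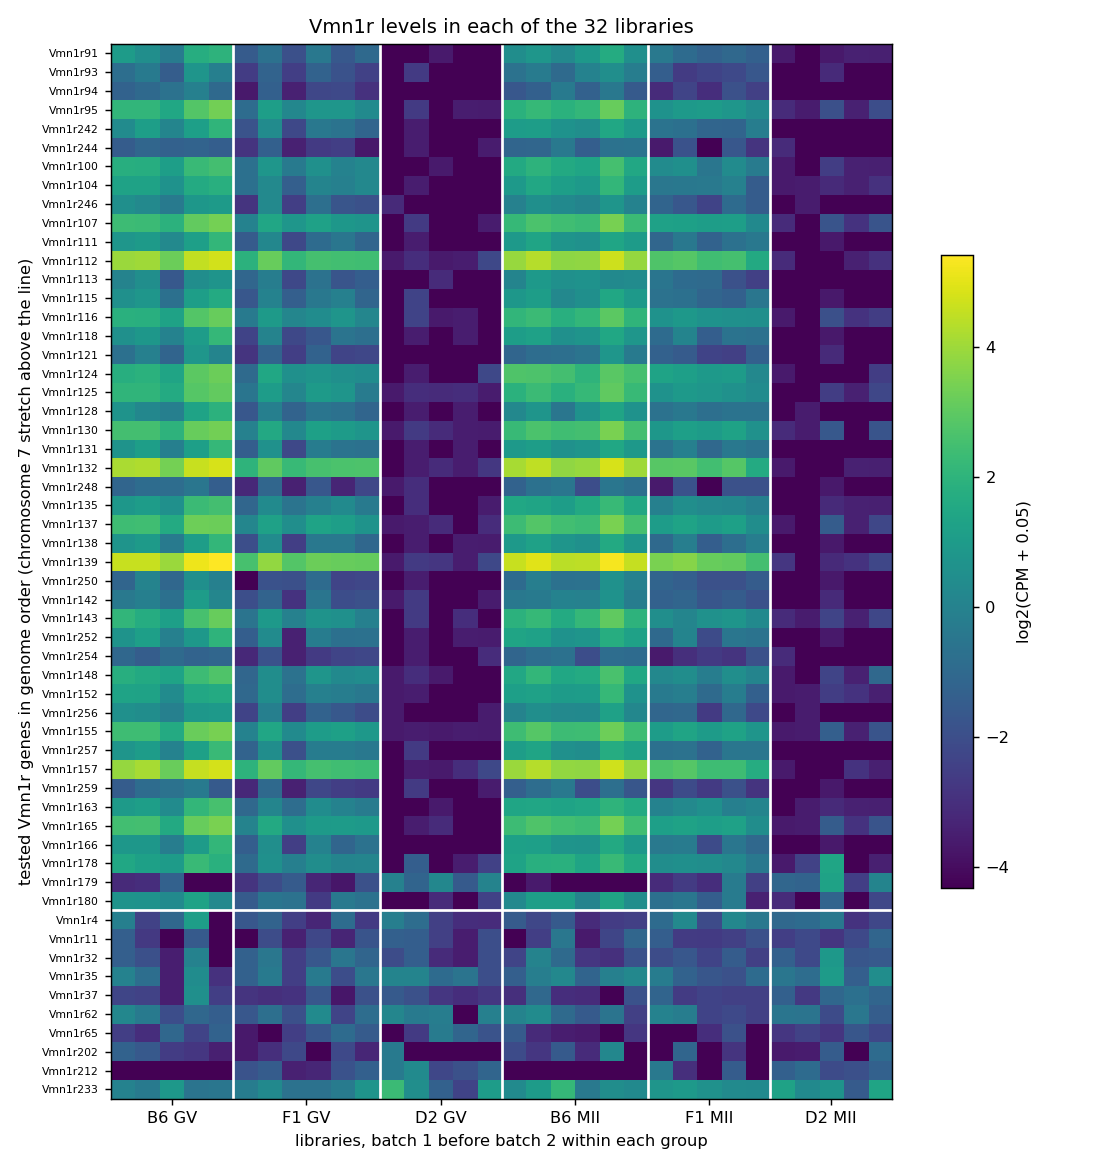
Level of the 56 tested Vmn1r genes as log2(CPM + 0.05), by colour, in each of the 32 libraries (columns by group). Genes are in genome order, with the 46 of the chromosome 7 stretch above the white line; B6 columns are bright, F1 columns intermediate and D2 columns dark above the line; Vmn1r179 and, in D2 MII batch 1 replicate 4, Vmn1r178 are exceptions.

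Vmn1r179, between Vmn1r178 and Vmn1r180 in the stretch, went the other way. D2 GV libraries read 0.915, 0.395, 1.09, 0.288 and 0.970 CPM and B6 GV libraries 0.0614, 0.0695, 0.353, 0 and 0 CPM, so that 1 B6 library overlapped the lowest D2 library. The log2 change was 2.99 (SE 1.03; edgeR adjusted p = 0.0336) at GV, and this call was lost in 10 of 40 alternative settings. At MII 1 read was counted over the 6 B6 libraries against 132 reads over the 5 D2 libraries, 80 of them in batch 1 replicate 4 (adjusted p = 6.5e-05), and the call was lost in batch 2 alone. Vmn1r179 shares 8.99% of its 50-mers, the lowest share in the stretch.

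The B6xD2 F1 mice carry 1 chromosome set of each parent, and their oocytes were compared with those of both strains. F1 values lay between the parents. All 45 members lower in D2 were below B6 in F1 oocytes at both stages, by log2 changes between -2.41 and -1.4 at GV and between -2.08 and -1.19 at MII. The test called 22 of them lower than B6 at GV and 16 at MII, 15 of them at both, where 2.67% and 2.7% of all genes were lower, 2.83% and 4.66% higher and 5.5% and 7.36% called in either direction. Vmn1r212 was called higher in F1 than in B6 at both stages and Vmn1r179 at MII; none of these calls held in either batch alone, and that of Vmn1r179 was also lost with the replicate block and without F1 MII batch 2 replicate 1 (highest adjusted p over the alternatives 0.374). Against D2, 41 members were higher at each stage and 39 at both, where 4.07% and 4.92% of all genes were higher, 1.97% and 3.2% lower and 6.05% and 8.11% called in either direction; no member was lower. The 2 comparisons of a stage share the F1 libraries, and those of F1 and of D2 with B6 share the B6 libraries. At GV 22 members were both lower than B6 and higher than D2, and 16 at MII. The share of all genes called in both comparisons, or at both stages, was not counted, so these joint counts have no background.

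For Vmn1r139, F1 GV libraries ranged from 5.88 to 14.2 CPM with a median of 8.74, and F1 MII libraries read 10.8, 12.4, 8.90, 8.39 and 5.63 CPM. None overlapped the B6 or the D2 libraries of its stage. The log2 change against B6 was -1.65 (SE 0.277; edgeR adjusted p = 0.00012) at GV and -1.51 (SE 0.287; adjusted p = 0.000504) at MII, and against D2 6.60 (SE 0.417; adjusted p = 4.01e-14) and 6.83 (SE 0.43; adjusted p = 3.53e-14). Vmn1r155 read 1.81 CPM ± 0.651 (SD, n = 6) in F1 GV and 2.11 CPM ± 0.343 (SD, n = 5) in F1 MII oocytes. Its log2 change against B6 was -1.85 (SE 0.401; adjusted p = 0.00307) and -1.51 (SE 0.411; adjusted p = 0.0182). The GV calls of Vmn1r139 and Vmn1r155 were lost in batch 1 alone, and the MII call of Vmn1r155 in 5 settings, among them no filter, each batch alone and leaving out F1 MII batch 2 replicate 2 (highest adjusted p 0.238).

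The summed level of the stretch in F1 was 0.288 times that of B6 at GV and 0.322 times at MII, and 0.57 and 0.632 times the mean of the parents. Within batches the F1 sum was 0.752 times the mean of the parents in batch 1 and 0.421 times in batch 2 at GV, and 0.733 and 0.522 times at MII. The B6 GV libraries of batch 2 were the higher ones (286 CPM against 146 in batch 1), while F1 values were close (60.5 and 55.9 CPM); the part of batch in this difference was not tested. The titles of batch 2 begin with 1 of 2 numbers, and all B6 libraries of that batch carry one of them, while 2 of 3 F1 GV and both F1 MII libraries carry the other. Within batch 2 these title sets and the difference of F1 from B6 cannot be told apart at MII, and only 1 F1 library shares the B6 set at GV. With the sets in place of batch, edgeR called 11 members lower in F1 than in B6 at GV and 4 at MII, and 45 lower in D2 than in B6 at each stage. When a change of more than 2-fold was required, no member was called lower in F1 than in B6 by edgeR. The lowest adjusted p was 0.135 at GV and 0.0542 at MII, 37 and 33 members had an unadjusted p below 0.05, and 0.547% and 0.779% of all genes were called. In batch 1 alone no member was called against B6 at GV and 3 at MII, and in batch 2 alone 12 and 4. For the title sets and the single batches the share of all genes called is not given. A loss of calls particular to the members cannot be read from these counts.

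**Figure D4:**
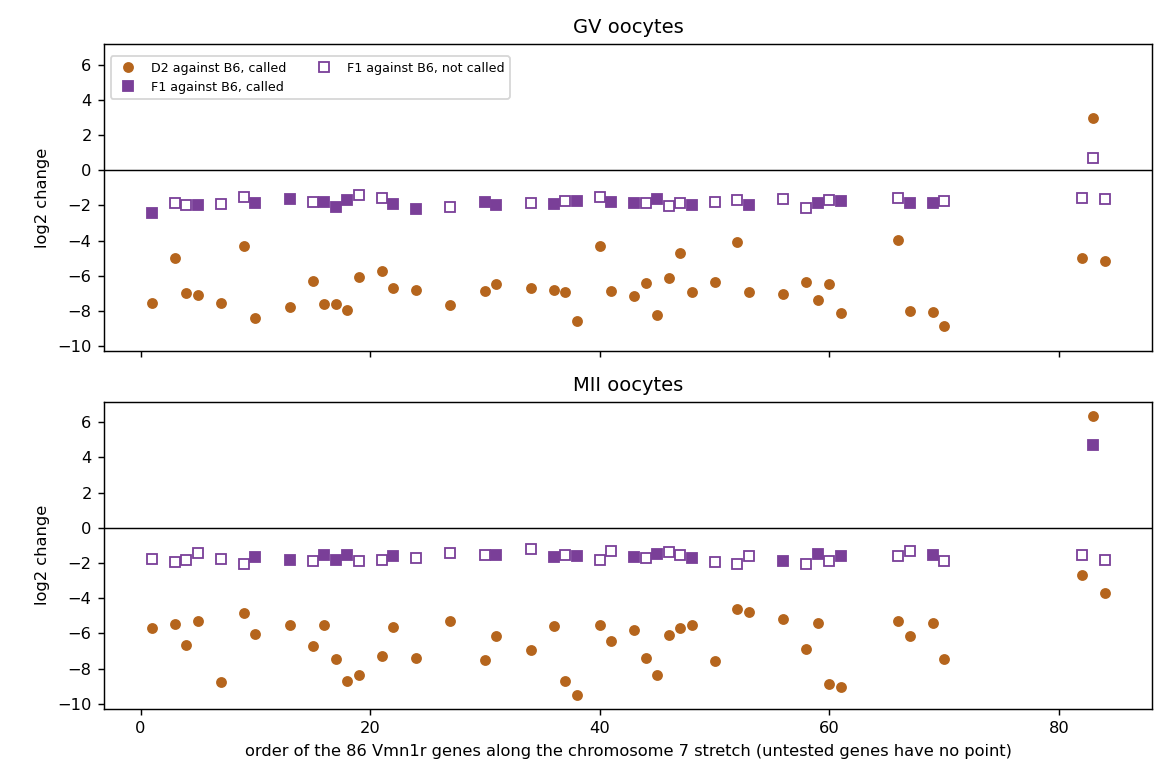
Log2 change of the tested Vmn1r genes in their order along the chromosome 7 stretch, for D2 against B6 (brown circles) and F1 against B6 (purple squares), at GV (top) and MII (bottom); filled points are called. D2 points lie between -9.50 and -2.66 except Vmn1r179, and F1 points of the same 45 genes between -2.41 and -1.19.

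Few members were called between GV and MII, which does not show that the others stayed the same. Averaged over the 3 kinds of mice, 2 members were higher at MII, Vmn1r165 (log2 change 0.89, edgeR adjusted p = 0.0175) and Vmn1r155 (0.70, adjusted p = 0.0303), and none was lower, where 22.9% of all genes were higher and 29% lower, 51.9% in all. In B6 oocytes Vmn1r165 read 6.75 CPM ± 3.09 (SD, n = 5) at GV and 6.3 CPM ± 2.05 (SD, n = 6) at MII. In D2 oocytes it read 0.02 CPM ± 0.0291 (3 reads) and 0.138 CPM ± 0.124 (20 reads; SD, n = 5 each). Tested within each kind of mouse, 3 members were higher at MII in D2 (Vmn1r107, Vmn1r155 and Vmn1r165) and none lower, where 13.1% of all genes were higher, 15.6% lower and 28.7% called. In B6, Vmn1r179 was lower and none higher, where 16.4% of all genes were lower, 10.3% higher and 26.7% called. The B6 GV level of Vmn1r179 was 0.0967 CPM ± 0.147 (SD, n = 5), and 0.0327 CPM ± 0.0379 (SD, n = 4) without batch 1 replicate 5, when the call was lost (edgeR adjusted p = 0.26). No member was called in F1 by edgeR, where 14.9% of all genes were higher, 18% lower and 32.9% called. In F1 no tested member had an unadjusted p below 0.05. Without D2 MII batch 1 replicate 4 no member was called in the average, and without D2 GV batch 1 replicate 4 there were 9.

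No member was called for a D2 difference that depends on the stage. The difference between the D2 effects at MII and GV was called by edgeR for none of the 56 members, of which 9 had an unadjusted p below 0.05, and for 0.105% of all genes (0.0474% higher and 0.0579% lower). DESeq2 also called none. Of 15 granulosa markers tested, 11 were lower at MII and 2, Ptgs2 and Tnfaip6, were higher, where 29% of all genes were lower and 22.9% higher. The part of granulosa RNA in the stage values was not tested.

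Outside the stretch, 10 members were tested on chromosomes 6, 7, 13 and 17, and 9 of them were not called between D2 and B6 at either stage. Vmn1r212 on chromosome 13 (22883088 to 22884324) was the exception. No read was counted in any of the 11 B6 libraries, while D2 GV libraries read 0.758, 1.22, 0.160, 0.216 and 0.401 CPM and D2 MII libraries 0.348, 0.480, 0.181, 0.211 and 0.356 CPM. Against a floor of 3 reads over the B6 group, D2 was at least 24.3-fold higher at GV (edgeR adjusted p = 0.00102) and at least 18.4-fold at MII (adjusted p = 0.000875); neither call held in batch 2 alone. F1 oocytes had 40 reads at GV and 31 at MII, at least 8.87-fold and 12.6-fold above B6 (adjusted p = 0.018 and 0.00796), and 2 of the 5 F1 MII libraries had none. These F1 calls were lost in each batch alone, and the one at GV also with the replicate number as a block.

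The most read member elsewhere was Vmn1r233 on chromosome 17 (20993727 to 20994686), with 1309 reads and no 50-mer in common with another transcript. It read 0.95 CPM ± 0.472 in B6 GV (SD, n = 5), 0.915 ± 0.393 in F1 GV (n = 6) and 1.76 ± 1.93 in D2 GV oocytes (n = 5). The MII values were 1.8 CPM ± 1.33 (SD, n = 6) in B6, 1.47 ± 0.286 in F1 and 1.59 ± 0.924 in D2 oocytes (n = 5 each), and the groups overlapped. D2 and B6 differed by a log2 change of 0.87 (SE 0.627; edgeR adjusted p = 0.384) at GV and -0.15 (SE 0.595; adjusted p = 0.893) at MII. Vmn1r35 on chromosome 6 had 593 reads and Vmn1r62 on chromosome 7 498, so that these 3 genes took 41.9% of the reads outside the stretch. All 163 reads of Vmn1r211, a neighbour of Vmn1r212, came from D2 MII batch 1 replicate 4. These genes were chosen after their values were seen.

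**Figure D5:**
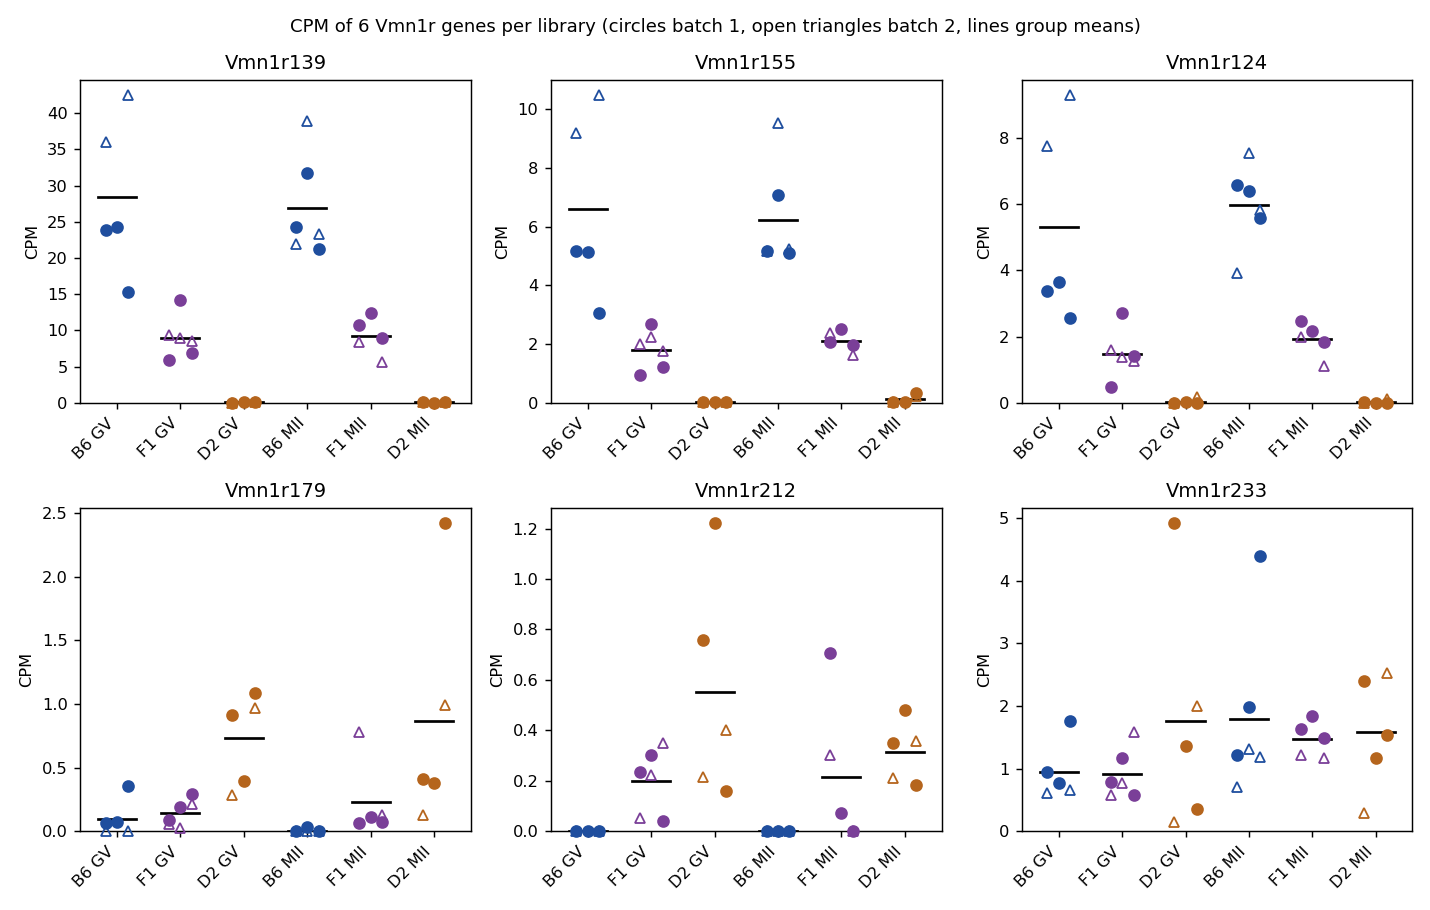
CPM of 6 Vmn1r genes in each library by group; circles are batch 1, open triangles batch 2 and lines group means. Vmn1r139, Vmn1r155 and Vmn1r124 are high in B6 and near 0 in D2, Vmn1r179 and Vmn1r212 are higher in D2, and Vmn1r233 overlaps between all groups.

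The other genes of the stretch were looked at for the same pattern. It held 108 rows of the table in all. Of 15 protein-coding genes with a provisional Gm name, 12 were tested and all 12 were lower in D2 at both stages, as was the tested Vmn1r pseudogene. These too could pass the filter through the group where they are high. Nlrp5 and Nlrp4e, oocyte genes of the NLR family that lie between members of the stretch, were read in both strains. Nlrp5, also known as Mater and needed for early embryos, read 1150 CPM ± 163 (SD, n = 5) in B6 and 891 CPM ± 183 (SD, n = 5) in D2 at GV (log2 change -0.37, edgeR adjusted p = 0.0116). At MII it read 820 CPM ± 61.9 (n = 6) and 899 CPM ± 20.8 (n = 5; SD; adjusted p = 0.337). Nlrp4e was higher in D2, at 222 CPM ± 65.5 against 171 CPM ± 76.5 (SD, n = 5 each) at GV (log2 change 0.41, adjusted p = 0.0247). At MII Nlrp4e read 319 CPM ± 73.1 in D2 (SD, n = 5) and 208 CPM ± 54.7 in B6 (SD, n = 6; log2 change 0.70, edgeR adjusted p = 5.32e-05).

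Other chemosensory receptor families gave a background. The Vmn2r genes, which encode the V2R receptors of basal vomeronasal neurons, had reads for 118 of 122 members. They summed to between 16.1 and 45.4 CPM in every library, and none of 16 tested was called between D2 and B6 at either stage. Of 1104 olfactory receptor genes (Olfr), 498 had reads and 53 were tested, of which 5 were higher and 12 lower in D2 at GV (32.1%, against 20.5% of all genes) and 7 higher and 12 lower at MII (35.8%, against 26.4%). Counts of the families are given side by side, and the difference between them was not tested.

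Of the 6 genes used as defining markers of vomeronasal neurons, Trpc2 and 3 others were at or near 0 and 2 were not. Trpc2, the transduction channel, had no read in any library. Omp, the marker of mature olfactory neurons, reached at most 0.648 CPM, Gng8 at most 1.04 CPM and Gng13 at most 0.491 CPM. Gnao1, the G-protein alpha subunit of basal vomeronasal neurons, lay between 0.217 and 9.08 CPM, with group means between 1.44 and 4.26 CPM. The 6 defining markers summed to between 162 and 425 CPM, of which Tfap2e, a factor of basal vomeronasal neurons that oocytes also hold here, made up 191 CPM ± 36.7 (SD, n = 5) in B6 GV oocytes. None of the 3 that were tested was called between D2 and B6. Rtp1, which helps odorant receptors to the cell surface, also had no read.

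Of 12 signalling genes 10 were tested, and the share called was read against 20.5% of all genes in D2 against B6 at GV, 26.4% at MII and 51.9% from GV to MII. At GV 1 was lower in D2, Gnai2, at 52.1 CPM ± 11.1 against 73.2 CPM ± 9.33 (SD, n = 5 each; log2 change -0.50, edgeR adjusted p = 0.0133). At MII Gnai2 and Gnb1, a G-protein beta subunit, were lower (log2 change -0.40 for both, adjusted p = 0.0331 and 0.0191) and Kcnn3, a potassium channel, was higher (1.67, adjusted p = 0.0497). From GV to MII 3 rose and 4 fell; among them Ano1, a chloride channel, fell by 2.28 on the log2 scale (adjusted p = 1.5e-07). The median log2 change in D2 was -0.05 at GV and -0.40 at MII, against -0.02 over all genes.

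Of 16 genes of neuron identity and receptor transport, 10 were tested, and 2 were higher and 1 lower in D2 at each stage, near the 20.5% and 26.4% of all genes called. Emx2, a homeobox gene of olfactory development, read 65 CPM ± 13.4 in D2 and 9.84 CPM ± 3.97 in B6 at GV (SD, n = 5 each; log2 change 2.70, edgeR adjusted p = 7.11e-11). Lhx2, a LIM homeobox gene, was higher by a log2 change of 1.11 (adjusted p = 2.62e-05) and Meis2 lower by -0.56 (adjusted p = 0.00239) at GV. From GV to MII 3 of the 10 rose and 2 fell, near the 51.9% of all genes. Among granulosa markers, 1 of 15 tested was higher in D2 at GV (Nr5a2), and 4 were higher and 1 lower at MII.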

How the data were processed

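The authors deposited raw read counts per NCBI gene for 32 libraries; per the submitters' processing notes the tools were HISAT2, SAMtools, featureCounts of Subread 1.5.1 and DESeq2 1.16.1, with GRCm38.p4. The treatment of strand and of reads with several matches is not given in the sources used here. Of 37444 rows, 3 broken rows, which lack a gene ID or some values, were left out (at most 0.019% of a library). Counts were tested with edgeR 4.0.16 in R 4.3.3: filterByExpr on the 6 groups, TMM, a quasi-likelihood fit of group and batch over all libraries, and Benjamini-Hochberg adjustment per comparison. CPM are TMM-scaled. DESeq2 1.42.0 was an alternative. Coding sequences came from GENCODE M21, matched by symbol for 206 members and by gene ID for 22, and were compared with edlib; positions are those of RefSeq and GENCODE on GRCm38. The code was tested on simulated data. Intervals and floors cover counting error only, since PCR reads are not independent molecules. Named genes were the 12 members with the highest mean CPM, and per comparison up to 6 called members in each direction with the lowest adjusted p and a group mean of at least 1 CPM; of each gene list, up to 4 called genes. The members and lists were chosen with earlier results of these data known. Alternatives were other scaling, filters, no batch term, batches alone, the replicate number as a block, each library left out and, added after seeing the data, copies summed, a 2-fold threshold, batch 2 split by the number that begins the titles and the stages within each kind of mouse.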

Additional observations from a re-analysis of the deposited data

Results flagged for a closer look

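In the libraries of a group, 1 sample stood apart from the rest by Dixon's criterion in 17 of 120 combinations of a gene or summed level with a group. Chance gives about 1 in 20 for normal values, while many groups here hold few reads. Copies share reads, so that the combinations are not independent. Some genes, Vmn1r211 among them, were added after their values were seen. The number flagged can therefore not be read against 1 in 20. B6 MII batch 2 replicate 2 was the highest of its group in 6 of the 17 flagged combinations. It read 10.3 CPM for Vmn1r165 (next 6.59), 10.8 for Vmn1r130 (next 6.21), 10.9 for Vmn1r137 (next 6.87), 10.7 for Vmn1r107 (next 6.31), 8.94 for Vmn1r95 (next 4.51) and 8.2 for Vmn1r125 (next 4.92). F1 MII batch 2 replicate 2 was the lowest of its group, at 1.3 CPM for Vmn1r165 (next 2.17) and 1.17 CPM for Vmn1r107 (next 2.06).

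Among D2 libraries, Vmn1r124 was highest in batch 2 replicate 2 at both stages, at 0.167 CPM at GV (next 0.0359) and 0.119 CPM at MII (next 0.0317). Vmn1r211 was at 4.93 CPM in D2 MII batch 1 replicate 4 and at 0 in the others of its group. Vmn1r62 was at 0 CPM in D2 GV batch 2 replicate 1 (next 0.754), and at 1.22 CPM in F1 GV batch 2 replicate 1 (next 0.53). Vmn1r233 reached 4.39 CPM in B6 MII batch 1 replicate 3 (next 1.99). Vmn1r179 reached 0.353 CPM in B6 GV batch 1 replicate 5 (next 0.0695), 0.0315 CPM in B6 MII batch 1 replicate 2 (1 read, the others at 0) and 0.778 CPM in F1 MII batch 2 replicate 1 (next 0.13).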

How the results depend on the processing

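The D2 against B6 counts (47 called at each stage) stayed within 1.5 times under every other scaling, filter, tool and batch choice: between 36 and 49, and between 46 and 48 at GV and 46 and 47 at MII with 1 library left out; with copies summed the count is of groups, 15 at each stage. The 12 named genes kept direction and call in 132 of 132 alternative values at each stage. They were picked by level and adjusted p in these same data, so this says little of other members. Of the runs with 1 library left out, only the lowest and the highest value of a gene entered. Vmn1r178, Vmn1r179, Vmn1r180 and Vmn1r212, which are not among the 12, lost D2 against B6 calls in some settings. F1 against B6 depended on the processing: 23 members were called at GV and 18 at MII, and 36 and 37 with DESeq2, 15 and 8 with no filter, 0 and 3 in batch 1, 12 and 4 in batch 2, 13 and 11 with the replicate block, 12 and 6 with batch 2 split by title set, 6 and 5 groups with copies summed and 0 and 0 for more than 2-fold. Leaving out 1 library gave 13 to 32 at GV and 7 to 20 at MII. It was 13 without B6 GV batch 2 replicate 2, and at MII 7 and 9 without F1 MII batch 2 replicates 2 and 1, 9 without B6 MII batch 2 replicate 2 and 11 without B6 MII batch 1 replicate 2. F1 against D2 gave 41 at each stage, 37 to 41 and 38 to 43 with 1 library left out, 25 and 27 in batch 2 alone, and 12 and 11 groups with copies summed. The stage average (2 called) gave 6 with no filter, 0 in batch 1, 1 in batch 2, 1 with the replicate block, 1 group with copies summed, 1 within B6, 0 within F1, and 0 to 9 with 1 library left out: 9 without D2 GV batch 1 replicate 4, 5 without D2 GV batch 1 replicate 3 or 5, 4 without D2 MII batch 1 replicate 3, 1 without D2 MII batch 2 replicate 2, B6 GV batch 1 replicate 2 or F1 GV batch 1 replicate 2, and 0 without D2 MII batch 1 replicate 4. Of the 132 stage values of named genes 4 changed sign: Vmn1r139 (0.053 without D2 GV batch 2 replicate 2, lowest -0.167 with another library left out), Vmn1r124 (-0.363 in batch 2 alone and -0.352 without D2 MII batch 2 replicate 2, highest 0.644) and Vmn1r125 (-0.044 without D2 MII batch 1 replicate 4, highest 0.213). The cause was not tested. The interaction stayed at 0 in all. The counts of this section stand without the share of all genes called under each setting. A loss of calls particular to the members cannot be read from them. Replicate numbers within a batch were shared by both stages, but deviations of same-numbered libraries correlated between -0.134 and 0.095, so that the numbers do not pair the samples; beyond the counts above the block moved no count by over 1.5 times. One read is worth between 0.0302 and 0.0423 CPM in D2 libraries, which limits the many D2 values of the stretch that rest on few reads.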
